A study of Rattus norvegicus with 6 samples.

Results

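The genes described here encode 3 families of RNA-binding proteins, the SR proteins (symbols beginning with Srsf and a digit), the hnRNP proteins (Hnrnp) and the RBM proteins (Rbm followed by a digit or x), together with the paraspeckle trio Sfpq, Nono and Pspc1. Members were chosen by gene symbol, which found 77 of the 22573 genes used: 12 SR, 19 hnRNP, 43 RBM and the 3 paraspeckle genes. No measured value enters that symbol rule, but the families were taken up with earlier results of this same comparison known. Counts of members are therefore descriptions, and the shares over all tested genes are given with them. Gene expression had been measured by RNA sequencing in nucleus pulposus cells of Sprague Dawley rats, which fill the gel-like centre of each intervertebral disc. The 2 groups held 3 libraries each: controls, and cells kept for 24 h under cyclic tensile strain, a repeated stretch by 18% at 0.2 Hz. All 6 samples carry the stretching text as their treatment, and only the class label marks the controls as unstretched. The study's stated interest was the circadian clock under such stretch. Separate animals or cultures are not stated for the replicates, so the p-values cover the spread between these 6 samples only, and that spread may be technical.

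SR proteins bind exonic sequences of a nascent transcript through RNA recognition motifs and recruit the spliceosome through a domain rich in arginine and serine. The hnRNP proteins coat nascent RNA and often oppose SR proteins in the choice of exons, and they also act in the stability and transport of mRNA. RBM is a naming class for proteins with an RNA recognition motif rather than a single lineage, and its members serve in the spliceosome, the nucleolus, RNA methylation, RNA decay and the response to cold. Sfpq, Nono and Pspc1 form dimers with each other and build paraspeckles, nuclear bodies assembled on a long noncoding RNA. Nono is also known as a partner of the period proteins of the clock.

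Values are FPKM, which scale the fragments of a gene by transcript length and by library size. Each library had 14378 to 14582 genes above 0 and 10052 to 10125 genes at 1 FPKM or more, and depth is unknown because FPKM keeps no read totals. Control and strain libraries were parted along the leading principal component (78.6% of variance). On the second, strain replicate 3 lay at 17.5, with its fellow strain libraries at -9.70 and -10.8. Of the defining markers of the labelled tissue, Acan, the main disc proteoglycan, averaged 31.1 FPKM in controls and 38.6 under strain. Shh was listed at 0 in every library, Krt18, Krt19 and T (brachyury) averaged 0.0845, 0.0111 and 0.0826 FPKM in controls, and Col2a1 averaged 0.0423 and 0.898. Other markers of that list were expressed. Krt8, Pax1, Foxf1, Sox9, Ncam1 and Cd24 averaged 4.19, 3.46, 7.94, 3.68, 7.37 and 5.06 FPKM in controls. Of the 20 nucleus pulposus and notochordal markers found, 13 averaged at least 1 FPKM over the 6 libraries. In these bulk samples, fewer cells of a type and less RNA per cell cannot be told apart.

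Of the 77 members, 62 averaged at least 1 FPKM over the 6 libraries and were tested, 15 fell under that filter, and 5 of those were listed at 0 in every library. limma was fitted to log2(FPKM + 1) of all 10180 tested genes, and a gene was called when its Benjamini-Hochberg adjusted p over all of them was under 0.05. Among all tested genes 35.4% were called, 16.4% higher under strain and 19.0% lower. Of the 62 tested members, 12 were called (19.4%), 2 of them higher and 10 lower. By limma 17 of the 62 had an unadjusted p under 0.05, beside 4686 of all 10180 tested genes. The lower calls were Sfpq, Hnrnpa3, Hnrnph2 and 7 RBM genes, and the higher calls were Srsf4 and Rbmx. Control and strain values did not overlap in 28 of the 62, where 51.9% of all tested genes had such separated groups. The median log2 difference of the tested members was -0.07, against -0.01 for all tested genes. Without control replicate 1 the calls over all genes went from 3608 to 2375.

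**Figure D1:**
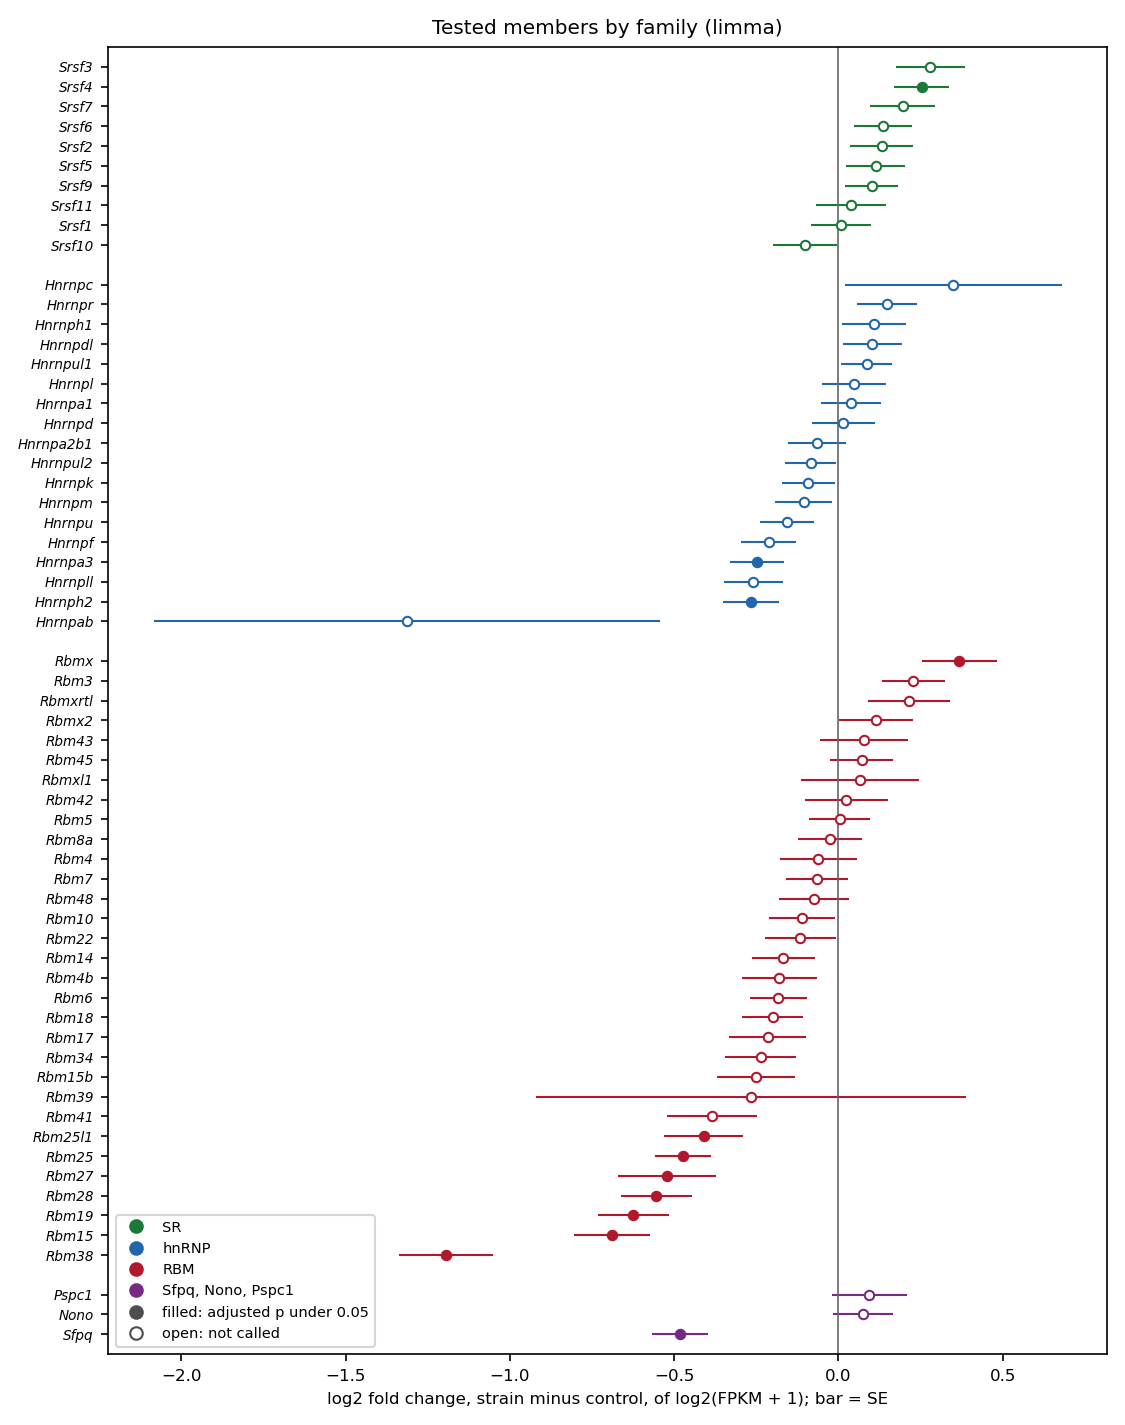
Difference of log2(FPKM + 1), strain minus control, for each of the 62 tested members, one row per gene, ordered within family; bars are standard errors from limma and filled points have an adjusted p under 0.05. The 12 filled points are mostly at the left, led by Rbm38 at -1.19, and the open point with the widest bar is Hnrnpab at -1.31.

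Over all 10180 tested genes, 4929 had a positive and 5251 a negative log2 difference, and the families are given beside that. Of 10 tested SR genes, 9 had a positive log2 difference, with a median of 0.12 and a range of -0.10 to 0.28. Of 18 tested hnRNP genes, 8 were positive and 10 negative, with a median of -0.07. Of 31 tested RBM genes, 9 were positive and 22 negative, with a median of -0.17. The SR median stayed positive and the RBM median negative under each other scaling tried, while the hnRNP median became 0.03 with quantile normalization and 0.00201 with upper-quartile scaling. Those scalings moved the median of all genes to between 0.03 and 0.05.

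The same medians were read library by library, as deviations of log2(FPKM + 1) from each gene's control mean. The SR median was -0.02, -0.02 and 0.07 in control replicates 1 to 3 and 0.10, 0.09 and 0.15 in strain replicates 1 to 3. The RBM median was -0.02, 0.02 and -0.03 in controls and -0.14, -0.18 and -0.08 under strain. Strain libraries lay above all controls for SR and below all controls for RBM, with strain replicate 3 nearest to the controls for RBM. The hnRNP median was 0.00, 0.03 and 0.01 in controls and -0.07 in each strain library.

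**Figure D2:**
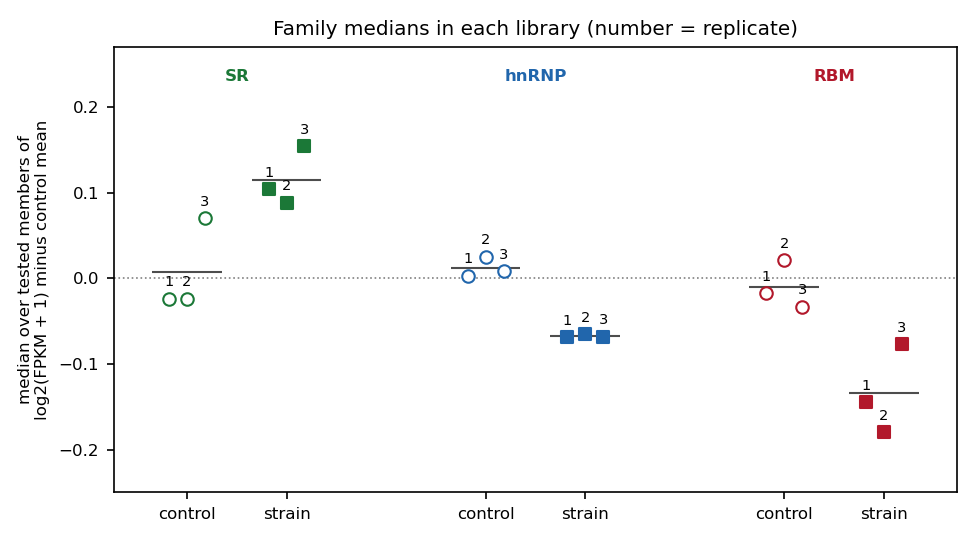
Median over the tested members of each family of log2(FPKM + 1) minus the gene's control mean, by library; open circles are controls, filled squares strain, numbers are replicates and short lines group means. SR strain medians sit at 0.09 to 0.15, above the controls, and RBM strain medians at -0.18 to -0.08, below them.

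Summed over genes, the abundant members outweigh the rest. The 12 SR genes summed to 278, 265 and 291 FPKM in controls and 306, 300.5 and 306 under strain, or 278 ± 13.2 and 304 ± 3.06 (SD, n = 3). The 19 hnRNP genes summed to 878 ± 5.24 FPKM in controls and 827 ± 7.75 under strain (SD, n = 3). The strain sums were all above the control sums for SR and all below them for hnRNP. As a share of each library's summed FPKM, however, the hnRNP genes took 0.260% ± 0.007 in controls and 0.255% ± 0.013 under strain (SD, n = 3), and those ranges overlapped. The 43 RBM genes summed to 412 ± 17.7 and 406 ± 19.5 FPKM (SD, n = 3), of which Rbm3 alone held 134 and 157.

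Among the paraspeckle trio, Sfpq fell while Nono and Pspc1 were not called. Sfpq, a DNA- and RNA-binding splicing factor that also acts in transcription, stood at 41.1, 42.6 and 41.0 FPKM in controls and 31.5, 29.7 and 27.2 under strain. It was 1.41-fold lower under strain by group means, with a log2 difference of -0.48 ± 0.09 (SE; limma, adjusted p = 0.0028). Every strain library lay below every control, and the call held under each of 14 other settings, which changed the scaling, filter, pseudocount or moderation, added a replicate block or left out a library. Its partner Nono stood at 67.6, 70.8 and 66.8 FPKM in controls and 70.6, 67.0 and 79.1 under strain, a log2 difference of 0.08 ± 0.09 (SE; limma, adjusted p = 0.553). Pspc1, the least abundant of the trio, averaged 5.77 ± 0.716 and 6.22 ± 0.667 FPKM (SD, n = 3; limma, adjusted p = 0.557). For both, control and strain values overlapped. The ratio of Sfpq to Nono within a library was 0.607, 0.602 and 0.614 in controls and 0.445, 0.444 and 0.344 under strain, lowest in strain replicate 3.

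Srsf4 was the 1 of 10 tested SR genes called, where 35.4% of all tested genes were. Srsf4, an SR protein with a long arginine- and serine-rich domain, stood at 12.4, 12.5 and 13.1 FPKM in controls and 14.8, 14.99 and 16.0 under strain. It was 1.21-fold higher, with a log2 difference of 0.25 ± 0.08 (SE; limma, adjusted p = 0.0420). The groups did not overlap, but the call held only without strain replicate 3 among the libraries left out in turn: the adjusted p was 0.135, 0.102 and 0.0771 without control replicates 1, 2 and 3, and 0.0766 and 0.0916 without strain replicates 1 and 2. Srsf3, the smallest SR protein and an adaptor for mRNA export, stood at 19.1, 21.3 and 24.9 FPKM in controls and 26.7, 27.3 and 25.5 under strain. Its 1.22-fold difference did not pass (limma, adjusted p = 0.0679), although every strain value lay above every control. Without control replicate 3, its highest control, the adjusted p was 0.0296.

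The other tested SR genes were closer to 0. Srsf6 averaged 33.4 ± 2.46 and 36.7 ± 1.42 FPKM in controls and strain (SD, n = 3; limma, adjusted p = 0.262), and Srsf9 averaged 38.3 ± 0.321 and 41.2 ± 2.24 FPKM (SD, n = 3; limma, adjusted p = 0.360). In both genes the groups did not overlap. Srsf5 and Srsf2 were the most abundant of the family, at 64.9 ± 4.99 and 49.2 ± 5.19 FPKM in controls and 70.2 ± 2.69 and 53.8 ± 1.59 under strain (SD, n = 3). Srsf7, a binding partner of the export receptor like Srsf3, had a log2 difference of 0.20 ± 0.10 (SE). Srsf1, the founding member of the family, averaged 23.8 and 23.9 FPKM, and Srsf11 9.24 and 9.48. Srsf10, which acts as a repressor of splicing when dephosphorylated, was the 1 tested SR gene with a negative difference, at -0.10 ± 0.10 (SE). No SR gene had an unadjusted p under 0.05 in the lower direction (0 of 10), and 2 had one in the higher direction. Of all 10180 tested genes, 2506 had one in the lower and 2180 in the higher direction.

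In the hnRNP family 2 of 18 tested genes were called (11.1%, beside 35.4% of all tested genes), both lower. Hnrnph2, which binds runs of guanine in RNA, stood at 57.5, 53.1 and 61.1 FPKM in controls and 47.5, 47.1 and 47.4 under strain. It was 1.21-fold lower, with a log2 difference of -0.27 ± 0.09 (SE; limma, adjusted p = 0.0376). Hnrnpa3, a close relative of the abundant A1 and A2 proteins, stood at 68.9, 69.9 and 68.2 FPKM in controls and 60.1, 59.4 and 54.6 under strain. It was 1.19-fold lower, with a log2 difference of -0.25 ± 0.08 (SE; limma, adjusted p = 0.0430). Neither gene had overlapping groups, and the strain values of Hnrnph2 were close together where its controls were spread. Both calls depended on the scaling: neither gene was called with quantile normalization, upper-quartile scaling or per-million scaling, where 0 hnRNP genes were called. Both also missed the threshold once any 1 of control replicates 1 and 3 and strain replicates 1 and 2 was left out (adjusted p = 0.0754 to 0.141), as did Hnrnpa3 without control replicate 2 (adjusted p = 0.106).

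The most abundant hnRNP genes were not called. Hnrnpa2b1, a reader and transporter of mRNA, stood at 190.3, 176 and 194 FPKM in controls and 174, 179.7 and 182 under strain (limma, adjusted p = 0.593). Hnrnpk, a poly(C)-binding protein, averaged 105 ± 3.58 and 98.2 ± 2.196 FPKM (SD, n = 3; limma, adjusted p = 0.412), with every strain value below every control. Hnrnpa1, a known antagonist of Srsf1, averaged 74.6 ± 6.08 and 76.4 ± 2.61 FPKM (SD, n = 3; limma, adjusted p = 0.777), with overlapping groups. Hnrnpf, a guanine-run binder like Hnrnph2, stood at 72.9, 67.0 and 74.5 FPKM in controls and 61.5, 60.01 and 62.9 under strain (limma, adjusted p = 0.0766). Without strain replicate 3 it passed (adjusted p = 0.0452). In the same F and H group Hnrnph1 averaged 39.9 and 43.0 FPKM, on the other side of 0 from Hnrnpf and Hnrnph2, and was not called. Hnrnpll, which represses exons in activated lymphocytes, came just short (12.9 ± 0.871 and 10.6 ± 0.527 FPKM, SD, n = 3; limma, adjusted p = 0.0519), and its relative Hnrnpl averaged 47.7 and 49.4.

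Of 31 tested RBM genes, 7 were called lower and 1 higher (25.8%, beside 35.4% of all tested genes), and there were 5 calls without control replicate 1 or control replicate 3. Rbm38, a target of p53 that binds the 3' region of mRNAs and alters their stability, showed the widest change. It stood at 7.11, 6.48 and 5.16 FPKM in controls and 1.74, 2.10 and 2.68 under strain, 2.88-fold lower, with a log2 difference of -1.19 ± 0.14 (SE; limma, adjusted p = 0.000406). The groups were far apart, since the lowest control was above the highest strain value by more than the spread within either group. It was the 1 tested gene of the 6 tissue-restricted splicing regulators of the class.

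Rbm15, which brings the m6A methyltransferase to its target RNAs, also fell. It stood at 2.19, 2.40 and 2.60 FPKM in controls and 1.37, 1.07 and 0.897 under strain, 2.16-fold lower, with a log2 difference of -0.69 ± 0.12 (SE; limma, adjusted p = 0.00215). Every strain library lay below every control. Its paralog Rbm15b, with the same known role, averaged 8.72 ± 1.46 FPKM in controls and 7.11 ± 0.406 under strain (SD, n = 3) and was not called (limma, adjusted p = 0.131), though its groups did not overlap either.

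Of the 3 nucleolar members, 2 were called lower, beside 19.0% of all tested genes. Rbm19, required for processing of the ribosomal RNA precursor, stood at 5.04, 5.65 and 4.78 FPKM in controls and 3.25, 2.63 and 3.11 under strain, 1.72-fold lower (log2 -0.62 ± 0.11, SE; limma, adjusted p = 0.00241). Rbm28, a nucleolar protein that also associates with spliceosomal small RNAs, stood at 7.47, 7.46 and 7.62 FPKM in controls and 5.61, 4.30 and 4.58 under strain, 1.56-fold lower (log2 -0.55 ± 0.11, SE; limma, adjusted p = 0.00434). Both had separated groups, and the 3 controls of Rbm28 were nearly equal. Rbm34, the third of them, averaged 6.05 ± 0.190 and 5.01 ± 0.719 FPKM (SD, n = 3) and was not called (limma, adjusted p = 0.120). Its groups did not overlap either.

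Of the 10 tested spliceosome-associated members, Rbm25 was the 1 called. Rbm25, which joins the U1 particle and regulates alternative splicing, stood at 10.1, 10.3 and 10.7 FPKM in controls and 7.54, 6.95 and 7.04 under strain, 1.44-fold lower (log2 -0.47 ± 0.09, SE; limma, adjusted p = 0.00329). Its sequence relative Rbm25l1 stood at 4.78, 4.49 and 5.15 FPKM in controls and 3.48, 3.92 and 2.77 under strain (log2 -0.41 ± 0.12, SE; limma, adjusted p = 0.0270). The groups of both genes were separated. If their sequences are alike enough, reads could have been split between them, which was not tested, so the Rbm25l1 value is uncertain. Its adjusted p was 0.0772, 0.0848 and 0.0504 without control replicate 1, control replicate 3 and strain replicate 1, and 0.0700 and 0.0820 with upper-quartile and per-million scaling.

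Over all 10 spliceosome-associated genes, Rbm25 included, the median log2 difference was -0.09. Of these, 3 were positive and 7 negative, beside 4929 and 5251 of all 10180 tested genes. The remaining 9 were not called, among them Rbm22 and Rbm10 at -0.12 and -0.11. Rbm42, a partner of the tri-snRNP, averaged 26.01 ± 2.57 and 26.6 ± 4.43 FPKM (SD, n = 3), and Rbm8a, a core subunit of the exon junction complex, averaged 22.9 ± 1.82 and 22.5 ± 1.87 (SD, n = 3). Rbm5, a regulator of splicing in apoptosis genes, averaged 18.1 in both groups. Rbm17, which acts in the choice of splice sites, stood at 23.6, 23.3 and 22.1 FPKM in controls and 18.1, 17.7 and 23.7 under strain (limma, adjusted p = 0.183). Here strain replicate 3 was the highest of all 6 libraries, and without it the adjusted p was 0.00893.

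Rbm27, a partner of the nuclear complex that sends polyadenylated RNA to the exosome, fell. It stood at 7.61, 7.86 and 7.78 FPKM in controls and 6.03, 5.79 and 3.74 under strain, 1.49-fold lower (log2 -0.52 ± 0.15, SE; limma, adjusted p = 0.0245). The groups did not overlap, with strain replicate 3 well below the others. Its call was lost without any single control library (adjusted p = 0.0613 to 0.0663) and held without any single strain library. It was also lost with no filter, upper-quartile scaling and per-million scaling (adjusted p = 0.0538, 0.0564 and 0.0726). Rbm7, an adaptor of another exosome complex, averaged 17.6 ± 1.09 and 16.8 ± 1.37 FPKM (SD, n = 3; limma, adjusted p = 0.620). The 3 members of the Lark group, Rbm4, Rbm4b and Rbm14, were tested and 0 were called by limma, and 0 had an unadjusted p under 0.05. Of all 10180 tested genes, 35.4% were called and 4686 had such an unadjusted p. Rbm18, among the abundant members, averaged 25.3 ± 2.43 and 21.8 ± 0.696 FPKM (SD, n = 3; limma, adjusted p = 0.126).

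Rbmx was the 1 RBM gene called higher. Rbmx, also called hnRNP G, an X-linked gene with roles in splicing and in chromatid cohesion, stood at 2.69, 3.22 and 2.25 FPKM in controls and 3.68, 3.89 and 3.75 under strain, 1.39-fold higher (log2 0.37 ± 0.12, SE; limma, adjusted p = 0.0349). All strain values lay above all controls, yet leaving out any library but control replicate 2 gave an adjusted p of 0.0609 to 0.115, and no filter on low values gave 0.0550. Its intronless relative Rbmxl1 averaged 4.08 ± 1.41 and 4.195 ± 0.334 FPKM (SD, n = 3). Rbmxrtl, a gene of similar symbol, averaged 15.6 ± 2.09 and 18.3 ± 2.46 FPKM (SD, n = 3; limma, adjusted p = 0.213). If the sequences of these genes are alike enough, reads could have been split between them, which was not tested. How the authors' counting shared such reads is not given in the sources used here, so the split between them is uncertain.

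Rbm3, the cold-inducible protein that binds ribosomes and mRNA, was the most abundant RBM gene. It stood at 136, 142 and 123 FPKM in controls and 148, 156 and 167 under strain, a 1.17-fold difference that did not pass (log2 0.23 ± 0.10, SE; limma, adjusted p = 0.0952). All strain values were above all controls, and the gene was called with quantile normalization, upper-quartile scaling and per-million scaling (adjusted p = 0.0230 for the last). Its cold-inducible counterpart outside the family, Cirbp, rose, from 4.08 ± 0.350 to 6.12 ± 0.611 FPKM (SD, n = 3; limma, adjusted p = 0.00787). Rbm3 and Cirbp both bind transcripts of the clock in other cells.

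**Figure D3:**
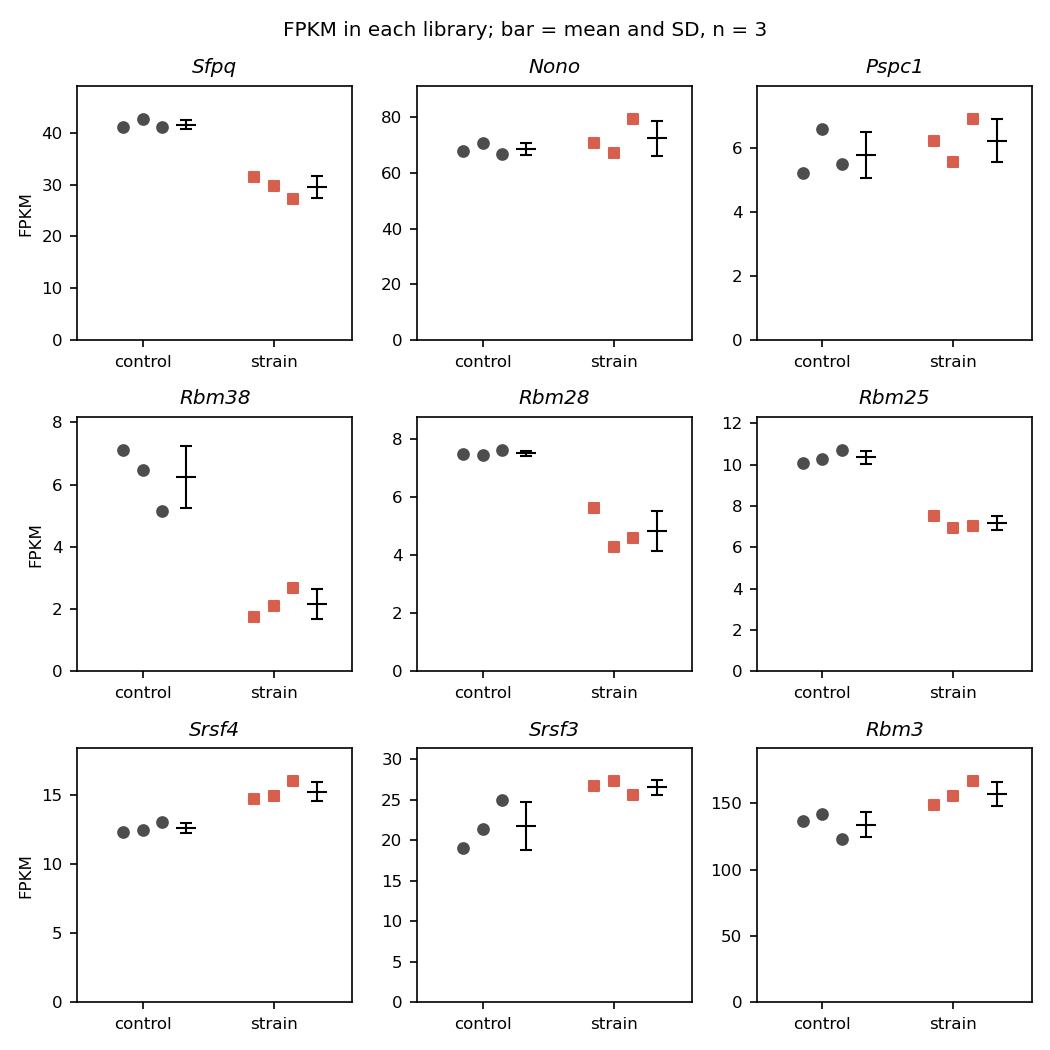
FPKM in each library for 9 members, one panel per gene with its own axis from 0; circles are controls, squares strain, bars the mean and SD of 3 libraries. Sfpq, Rbm38, Rbm28 and Rbm25 fell and Srsf4 rose with no overlap, while Srsf3 and Rbm3 were separated without being called, and Nono and Pspc1 overlapped.

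The calls on 6 members, Rbm15, Rbm19, Rbm25, Rbm28, Rbm38 and Sfpq, were kept under every one of those 14 settings in which they were tested. Rbm15, Rbm19 and Rbm38 average under 5 FPKM and were not tested with the filter at that level. Their highest adjusted p in any of them was 0.00986 for Rbm15, 0.0119 for Rbm19, 0.0168 for Rbm25, 0.0199 for Rbm28, 0.00283 for Rbm38 and 0.0148 for Sfpq. All 6 were lower under strain. Their promoters are shown because these are the members whose fall did not hinge on a choice of processing. Each is the 250 bases before the gene's RefSeq start in the rat assembly GRCr8, written 5' to 3' on the gene's strand, and capitals mark 3 motifs on either strand. They are the CCAAT box, the GC box with the letters GGGCGG, and the ETS core with the letters CGGAAG. Rbm38 has more than 1 RefSeq start and the first listed was used. The windows lie at chr2:197642698-197642947 on the minus strand for Rbm15, chr12:42111531-42111780 (minus) for Rbm19, chr6:109002641-109002890 (plus) for Rbm25, chr4:58726969-58727218 (minus) for Rbm28, chr3:182219669-182219918 (plus) for Rbm38 and chr5:144622283-144622532 (plus) for Sfpq. By construction each window ends just before the annotated start of transcription.
Rbm15: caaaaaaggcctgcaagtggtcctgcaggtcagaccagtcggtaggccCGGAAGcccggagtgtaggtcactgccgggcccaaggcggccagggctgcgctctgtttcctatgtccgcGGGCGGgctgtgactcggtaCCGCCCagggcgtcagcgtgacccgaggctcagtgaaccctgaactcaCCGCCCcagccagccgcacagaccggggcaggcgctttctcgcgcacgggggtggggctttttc
Rbm19: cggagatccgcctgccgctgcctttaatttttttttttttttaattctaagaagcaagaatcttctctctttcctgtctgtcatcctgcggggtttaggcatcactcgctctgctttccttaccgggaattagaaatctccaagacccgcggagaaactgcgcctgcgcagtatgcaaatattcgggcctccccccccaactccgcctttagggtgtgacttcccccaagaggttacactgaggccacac
Rbm25: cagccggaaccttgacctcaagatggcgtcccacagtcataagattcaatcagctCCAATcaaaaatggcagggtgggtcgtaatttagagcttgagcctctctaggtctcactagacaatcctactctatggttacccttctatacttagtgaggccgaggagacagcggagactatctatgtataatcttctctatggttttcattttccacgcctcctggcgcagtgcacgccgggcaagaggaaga
Rbm28: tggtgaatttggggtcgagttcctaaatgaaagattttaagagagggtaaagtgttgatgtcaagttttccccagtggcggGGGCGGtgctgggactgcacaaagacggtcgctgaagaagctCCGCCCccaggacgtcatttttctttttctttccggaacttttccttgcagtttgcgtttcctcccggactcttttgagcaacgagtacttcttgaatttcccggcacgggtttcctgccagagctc
Rbm38: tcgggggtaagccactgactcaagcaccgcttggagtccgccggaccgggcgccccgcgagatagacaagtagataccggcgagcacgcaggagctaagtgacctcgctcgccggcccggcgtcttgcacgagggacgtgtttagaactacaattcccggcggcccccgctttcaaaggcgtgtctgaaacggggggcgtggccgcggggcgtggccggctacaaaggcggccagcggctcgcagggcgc
Sfpq: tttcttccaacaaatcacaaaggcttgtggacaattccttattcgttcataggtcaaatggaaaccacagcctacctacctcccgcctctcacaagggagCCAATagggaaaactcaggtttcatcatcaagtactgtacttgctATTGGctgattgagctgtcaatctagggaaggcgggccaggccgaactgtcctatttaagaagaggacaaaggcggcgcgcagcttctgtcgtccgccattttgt

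These windows had little in common by the motifs searched. Sfpq held 2 CCAAT boxes, whose first bases lay 150 and 105 bases before the start, and Rbm25 held 1, at 195 bases. Rbm15 held 3 GC boxes and 1 ETS core, Rbm28 held 2 GC boxes, and Rbm19 and Rbm38 held no match to the 3 motifs. The E-box CACGTG, the letters bound by the clock's activators, was in 0 of the 6 windows. That says only that these letters are not in these 250 bases. G and C made up 48.4% to 68% of them.

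Over the families, 69 of 77 members had a promoter in the RefSeq table. The E-box CACGTG, searched on both strands, was in 7 of those 69 windows (10.1%), against 5.59% of all 33469 promoters and 8.59% of the 7773 promoters of tested genes. CCAAT was in 53.6% of member windows, against 34.0% of all promoters and 2801 of the 7773 of tested genes. By family it was in 13 of 18 hnRNP windows (72.2%), 17 of 36 RBM windows (47.2%) and 5 of 12 SR windows (41.7%). The ETS core CGGAAG was in 7 of 12 SR windows (58.3%), 22.2% of hnRNP and 22.2% of RBM windows, against 30.0% of promoters of tested genes and 13.9% of all. The GC box GGGCGG was in 75.0% of SR, 72.2% of hnRNP and 36.1% of RBM windows, beside 62.3% for tested genes and 30.5% for all promoters. The palindrome TGACGTCA, the cAMP response element, was in 1 of 69 member windows (1.45%), 3.05% of those of tested genes and 1.59% of all. TTATGTAA, a D-box, was in 1 of 69 member windows (1.45%), 0.334% of those of tested genes and 0.828% of all. TATAAA was in 11.6% of member windows, 6.01% of those of tested genes and 12.9% of all. A match of letters is a description and does not show that a factor binds there.

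In 3 tested members the highest value was over 2.5 times the lowest within a group. Hnrnpab, a relative of the A and D proteins, stood at 1.10, 11.5 and 11.4 FPKM in controls and 1.72, 1.71 and 1.89 under strain. Its log2 difference of -1.31 ± 0.77 (SE) did not pass (limma, adjusted p = 0.248), but without control replicate 1 it was -2.17 with an adjusted p of 6.05e-05. Control replicate 1 was below all strain libraries, while the other controls were above them.

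Hnrnpc, a packer of nascent RNA, stood at 3.49, 3.31 and 2.87 FPKM in controls and 3.06, 8.67 and 2.94 under strain, where strain replicate 2 alone was high. Its log2 difference went from 0.35 with all libraries to -0.07 without that library. Rbm39, a partner of the branch-site factor U2AF, stood at 0.593, 5.64 and 0.733 FPKM in controls and 0.476, 2.36 and 1.13 under strain. The replicates numbered 2 were the high ones in both groups, and the log2 difference went from -0.27 to 0.40 without control replicate 2. No label gives a feature shared by those libraries, and the handling of isoforms in these files is not stated.

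**Figure D4:**
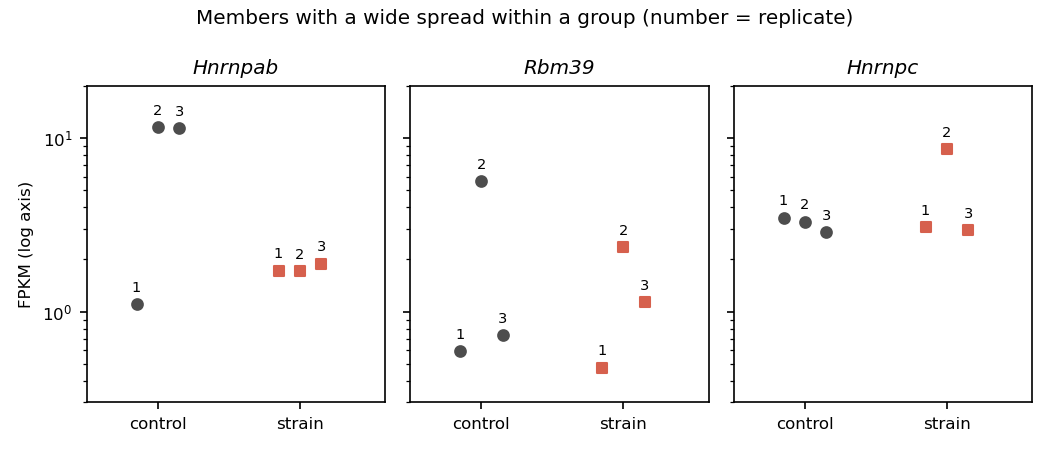
FPKM in each library, on a log axis, for the 3 tested members with a highest value over 2.5 times the lowest within a group; numbers are replicates. A lone library stands apart in Hnrnpab (control replicate 1) and Hnrnpc (strain replicate 2), and the replicates numbered 2 are high in Rbm39.

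The 15 members under the filter were mostly near 0. Srsf8, Rbm26, Rbm31y, Rbm33 and Rbmxl2 were listed at 0 in all 6 libraries, which in these files can also be a failed estimate. Rbm12 was listed at 0 in 5 libraries and at 0.00533 FPKM in strain replicate 2. Hnrnph3, Rbm11, Rbm12b, Rbm20, Rbm24, Rbm44, Rbm46 and Rbm47 averaged under 1 FPKM in both groups, the highest being Rbm24 at 0.806 and 0.695. Srsf12 stood at 0.192, 0.582 and 0.637 FPKM in controls and 1.69, 1.17 and 0.999 under strain, and all strain values were above all controls. Rbm47, a cofactor of RNA editing, stood at 0.106, 0.104 and 0.127 FPKM in controls and 0.0348, 0.0258 and 0.0249 under strain. With no filter on low values, limma called Srsf12 higher (adjusted p = 0.0324) and Rbm47 and Rbm11 lower (adjusted p = 0.0108 and 0.0495), all at very low levels.

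Genes that work with these families were read from lists chosen by function. Shares called are to be read beside the 35.4% of all tested genes (16.4% higher, 19.0% lower). Of 54 tested core spliceosome genes, 6 were called (11.1%), 0 higher and 6 lower. By unadjusted p under 0.05 limma gave 1 higher and 12 lower, beside 2180 and 2506 of all 10180 tested genes. Cdc5l, a scaffold of the complex that activates the spliceosome, fell 1.48-fold from 26.8 ± 2.70 to 18.1 ± 0.760 FPKM (SD, n = 3; limma, adjusted p = 0.00303). Its complex partner Plrg1 fell 1.28-fold (limma, adjusted p = 0.0234), Prpf38b 1.41-fold (adjusted p = 0.00391) and Sf3a1, of the U2 particle, 1.23-fold (adjusted p = 0.0320). The list's median log2 difference was -0.05, and without control replicate 1 or control replicate 3 it held 2 calls, with 3 without strain replicate 2 and 10 without strain replicate 3.

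Of 23 other splicing factors with an RS domain, 2 were called (8.7%, beside 35.4% of all tested genes), both lower, and 20 of the 23 had a negative log2 difference (median -0.08). They were Scaf4 and Scaf8, which bind the tail of RNA polymerase II and prevent early termination, at 1.43-fold and 1.27-fold lower (limma, adjusted p = 0.00361 and 0.0446). Without control replicates 1, 2 or 3 or strain replicate 1 the list held 1 call. Bclaf1 and Acin1 were the next, with adjusted p of 0.0810 and 0.0907. No gene of this list had an unadjusted p under 0.05 in the higher direction (0 by limma), beside 2180 of all 10180 tested genes.

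A further list of kinases and import receptors was drawn up around SR proteins, and the action of each gene on them was not tested. Of its 15 tested genes, 3 were called, all lower (19.0% of all tested genes were called lower), with a median of -0.16. Srpk1, the cytoplasmic kinase of RS domains, fell 1.23-fold (limma, adjusted p = 0.0435). Cdk12, which phosphorylates the tail of RNA polymerase II, fell 1.53-fold (adjusted p = 0.0353), and the import receptor Tnpo1 fell 1.35-fold (adjusted p = 0.0441). The import receptors Tnpo2 and Tnpo3 were not called (limma, adjusted p = 0.489 and 0.217). Cdk13 averaged 9.19 ± 0.617 and 7.49 ± 0.790 FPKM (SD, n = 3; adjusted p = 0.0755). The nuclear kinase Clk1 averaged 47.4 ± 2.03 and 44.5 ± 0.220 FPKM (SD, n = 3; adjusted p = 0.408). The list held 0 calls with quantile normalization, upper-quartile scaling, per-million scaling or no filter, and also without control replicate 1 or control replicate 3, and 1 call without control replicate 2.

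Of 30 tested splicing regulators outside the families, 3 were called higher and 5 lower (26.7% called, beside 35.4% of all tested genes), with a median of -0.12. Tia1, a binder of uridine-rich introns and stress granule protein, rose 1.55-fold, from 3.65 ± 0.532 to 5.64 ± 0.194 FPKM (SD, n = 3; limma, adjusted p = 0.00637). Mbnl3 of the muscleblind family averaged 0.762 and 1.59 FPKM (log2 0.56 ± 0.12, SE; limma, adjusted p = 0.00824), and the third higher call was Cirbp. Taf15, an RNA-binding protein of the transcription machinery, fell 1.35-fold (adjusted p = 0.0101), and the other lower calls were Ptbp1, Celf1, Khsrp and Safb. Without control replicate 1 the list held 4 calls, and without control replicate 2 it held 5.

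Of 20 tested genes of the exon junction complex and mRNA export, 1 was called in each direction (35.4% of all tested genes were called). Thoc6, of the export complex THO, rose 1.34-fold (limma, adjusted p = 0.0225), and the export helicase Ddx39a fell 1.34-fold (adjusted p = 0.0254). Of the 20 genes, 10 were positive and 10 negative, with a median of 0.01. By unadjusted p under 0.05 limma gave 1 higher and 4 lower, beside 2180 and 2506 of all 10180 tested genes. Magohb and Ncbp1, the next by p, had negative differences and were not called (limma, adjusted p = 0.0626 and 0.0872). The list held 0 calls without control replicate 2, control replicate 3 or strain replicate 2, and 1 without control replicate 1 or strain replicate 1.

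Nonsense-mediated decay, the pathway that destroys mRNAs with early stop codons, including those that SR and hnRNP genes make of their own transcripts, had 6 of 10 tested genes called, all lower, beside 19.0% of all tested genes called lower. All 10 had a negative log2 difference, as did 5251 of all 10180 tested genes, and the medians were -0.37 and -0.01. Upf1, the helicase at its centre, fell 1.29-fold, from 15.9 ± 0.590 to 12.3 ± 0.454 FPKM (SD, n = 3; limma, adjusted p = 0.0124). Its partner Upf2 fell 1.39-fold (adjusted p = 0.0225), and Smg5, which acts on phosphorylated Upf1, fell 1.25-fold (adjusted p = 0.0177). Without control replicate 1 the list held 1 call, and without control replicate 2 or strain replicate 2 it held 3.

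**Figure D5:**
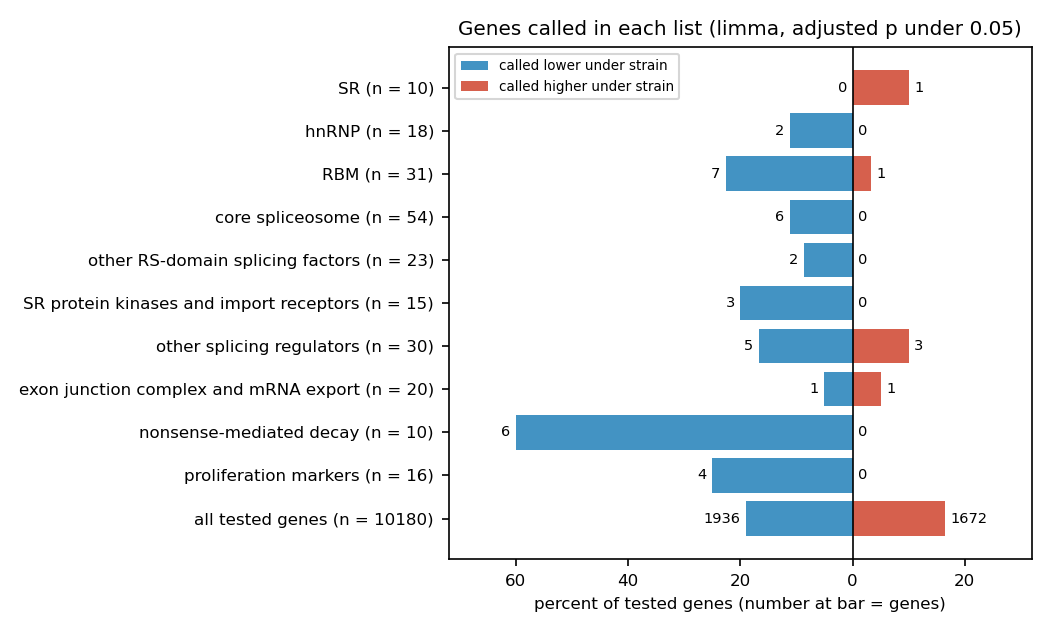
Percent of the tested genes of each list called lower (left) and higher (right) under strain by limma at an adjusted p under 0.05, with gene counts at the bars and all 10180 tested genes at the bottom. The decay list holds 6 lower calls among 10 genes, beside 19.0% of all tested genes, and the SR family holds 1 higher call.

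Markers of cell state and of other cells moved between the same groups. Of 16 proliferation genes, 4 were called lower and 0 higher by limma: Pcna, Mcm3, Rrm2 and Mcm4, by 1.53-, 1.598-, 1.56- and 1.29-fold. Beside these 4 of 16, 19.0% of all tested genes were called lower. By unadjusted p under 0.05, 0 of the 16 were higher, beside 2180 of all 10180 tested genes. The Mcm4 call was lost under 10 of the 14 other settings. Those of Pcna, Mcm3 and Rrm2 were lost under 0 of the settings in which they were tested. Without strain replicate 3 that list held 7 calls. Of 13 tested genes of the nucleus pulposus and notochordal list, 9 were called higher and 1 (Cdh2) lower. The calls in this list and those that follow stand beside 16.4% higher and 19.0% lower over all tested genes. The nucleus pulposus list's summed level went from 5012 to 5394 FPKM in controls to 11806 to 14069 under strain. Nearly all of that sum was Mgp, matrix Gla protein, at 4890 to 5274 FPKM in controls and 11553 to 13780 under strain. The macrophage list (4 of 12 tested, 1 higher and 2 lower) summed to 17.7 to 24.5 FPKM in controls and 20.5 to 23.7 under strain, with Cd163 listed at 0. The endothelial list (1 of 10 tested, higher) summed to 13.4 to 14.5 and 17.5 to 21.1 FPKM, with Cdh5 and Emcn at 0. Most of that sum was Eng, the tested gene, which averaged 12.4 FPKM in controls and 17.7 under strain. Flt1, under the filter, went the other way, averaging 1.43 and 0.484 FPKM. The neural list (2 of 8 tested, both higher) summed to 30.4 to 32.6 and 38.3 to 48.2 FPKM, with Rbfox3 and Gfap at 0. Most of that sum was S100b, which averaged 29.4 FPKM in controls and 39.2 under strain. The muscle list (2 of 9 tested, 0 called by limma, 1 with an unadjusted p under 0.05) summed to 3.49 to 6.31 and 4.30 to 9.02 FPKM, and the red blood cell list (0 of 6 tested) to at most 0.0159. The part of these markers in the results on the RNA-binding families was not tested.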

How the data were processed

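RNA of 3 control libraries and 3 libraries under cyclic tensile strain had been sequenced, and 1 table of gene symbols and values was deposited per library. The deposited values were taken as FPKM made by the authors. The submitters' processing notes name DESeq, Cufflinks, Cuffdiff 2.2.1, HISAT2 2.0.4 and cutadapt 1.9.3, without role or order, and the human build hg19, although the symbols are rat ones. Annotation and strand handling are not given in the sources used here. Overlapping and antisense genes therefore cannot be told apart.

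Left out were 27 rows per library whose symbol had become a date, and 1 row whose name and value ran together in 1 control file. No 2 libraries were copies (0% identical values). Genes averaging at least 1 FPKM (10180) were fitted with limma 3.58.1 in R 4.3.3 on log2(FPKM + 1), comparing strain with control (trended, robust variance moderation; two-sided), with Benjamini-Hochberg adjustment over all of them. The fit was tested on simulated data. Log2 differences are on that scale, which understates changes of low genes, and folds are ratios of group mean FPKM. Depth is unknown, so no counting interval was computed.

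The members and gene lists were chosen with earlier results of these data known. Genes named by rule were every tested SR gene, the paraspeckle trio, called hnRNP and RBM genes (at most the 8 widest changes each), the 4 most abundant of both families, all members under the filter, and the 4 smallest p of each further list, of which 1 gene is not reported here. Others were named after their values were seen. Promoters came from RefSeq tables of GRCr8, matched by symbol. Alternatives were the pseudocount (0.1), the filter (none, or 5 FPKM), quantile, upper-quartile and per-million scaling, plain moderation, a replicate block and leaving out each library. A further alternative, without members of wide spread, was added after seeing the data.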

Additional observations from a re-analysis of the deposited data

How the results depend on the processing

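The FPKM files carry no depth, so counting error is unknown, and with 3 libraries a group each library weighs heavily. Against 3608 genes called among all tested, leaving out 1 library gave 2375 to 3576. The same omissions gave 0 to 1 SR calls (1 in the full data), 0 to 3 hnRNP calls (2), 5 to 8 RBM calls (8), and 2 to 10 core spliceosome (6), 1 to 2 RS-domain (2), 0 to 4 kinase and import (3), 4 to 8 other regulator (8), 0 to 3 junction complex and export (2), 1 to 7 decay (6) and 3 to 7 proliferation calls (4). The hnRNP median moved between -0.0762 and -0.0535 and the RBM median between -0.170 and -0.112.

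SR calls were 2 with no filter and 2 with upper-quartile scaling. hnRNP calls were 0 with quantile, upper-quartile and per-million scaling and 1 with plain moderation. RBM calls were 3 at a mean of at least 5 FPKM, where fewer genes are tested. The SR median was 0.191, 0.199 and 0.181 with quantile, upper-quartile and per-million scaling, the hnRNP median 0.0314, 0.00201 and -0.0188, and the RBM median -0.115, -0.0980 and -0.126. With no filter the last 2 were -0.0839 and -0.111. RS-domain calls were 1 with no filter and with each of the 3 scalings, kinase and import calls 0 with those 4 settings and 1 with plain moderation, and junction complex and export calls 4 with plain moderation. Apart from the settings whose construction is named, the cause was not tested.

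Replicate numbers are shared between the groups, but the labels do not say what a number marks. Deviations of same-numbered libraries correlated at 0.0325, 0.108 and -0.116 across genes, and other pairs at -0.210 to 0.120. With 3 libraries a group, these values cannot show whether same-numbered libraries share more than a number. A replicate block gave 0 SR, 0 hnRNP, 3 core spliceosome, 1 kinase and import and 1 junction complex and export calls. Under it Rbm25l1, Rbmx and Mcm4 were no longer called (adjusted p = 0.0559, 0.0506 and 0.0617), and Rbm41 was (0.0445).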
